A study of Mus with 9 samples.

Results

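Fibroblasts and pericytes hold the space between kidney tubules, and after injury they can become myofibroblasts, contractile cells that carry smooth muscle actin and lay down extracellular matrix. The genes used to follow them are shared with other cells. Smooth muscle of the vessel wall carries the contractile genes, endothelial cells, leukocytes, podocytes and injured tubules carry vimentin, and mesangial cells carry PDGF receptors.

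10 such genes were examined in mouse kidney RNA, chosen by symbol from the 54532 genes of the deposited table, and all 10 were found there. They were the contractile genes Acta2 and Tagln, the intermediate filament gene Vim, the matrix genes Fn1, Postn and Fbn1, the receptor genes Pdgfra and Pdgfrb, and S100a4 and Fap, both used as markers of fibroblast subsets. The 9 libraries came from 9 male C57BL/6 mice in 3 groups, with 1 library for each mouse and 3 in each group. All mice lost 1 kidney by nephrectomy at 18 months of age. The 18 mo mice were killed 1 week after that surgery, the 21 mo mice received saline by intraperitoneal injection until 21 months of age, and the 21 mo/O304 mice received O304, a small-molecule activator of the energy-sensing kinase AMPK, at 10 mg/kg per day over the same period. Age, time since surgery and the injections cannot be told apart between the 18 mo group and the others, and no young mice or mice with both kidneys were analysed here. The counts assigned to genes ranged from 15636378 to 18396725 per library, so that 1 count was worth between 0.0458 and 0.0669 CPM, the count scaled to a common library size by the TMM method. Markers of the proximal tubule, the main cell type of the kidney cortex, were present in every library, with Slc34a1, its phosphate transporter, between 471 and 6280 CPM. Genes that define fibroblasts were also present in every library, such as Dcn, the small matrix proteoglycan decorin, at 23.7 to 169 CPM.

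The 3 libraries of the 21 mo group were unlike each other. Over all genes tested, replicates spread by a biological coefficient of variation of 44.1% at 21 mo, against 18.1% at 18 mo and 20.6% with O304. Replicate 3 stood furthest apart, with summed proximal tubule markers at 0.0622 of the 18 mo mean, and replicate 2 followed at 0.283, while replicate 1 was at 0.881. Kap made up 48.7% of this sum, and by the median marker the levels were 0.123, 0.410 and 0.903 of the 18 mo mean. For the 8 genes that passed the filter on low counts, and for many lists of related genes, values without replicate 1 or replicate 3 are given beside the results. Ranges over left-out libraries are in the closing section.

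Compared per length of transcript, as FPKM, the 10 genes covered a wide range. By the median over 9 libraries the order was Acta2 at 12.4 FPKM, Vim at 11.4, Pdgfrb at 4.74, Pdgfra at 2.29, Fn1 at 1.74, Fbn1 at 0.912, Tagln at 0.553, S100a4 at 0.282, Postn at 0.160 and Fap at 0.0343. Acta2 and Vim changed places between libraries, with the ratio of Vim to Acta2 from 0.593 to 1.75, so the neighbours at the top of this order did not differ beyond their spread. The order also shifted in 21 mo replicate 3, where Fn1 at 19.5 FPKM stood above Pdgfrb at 14.1 and Fbn1 at 8.99 above Pdgfra at 6.54. S100a4 and Fap were close to the detection limit in most libraries and did not pass the filter on low counts, which left 8 of the 10 genes for the test across genes.

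**Figure D1:**
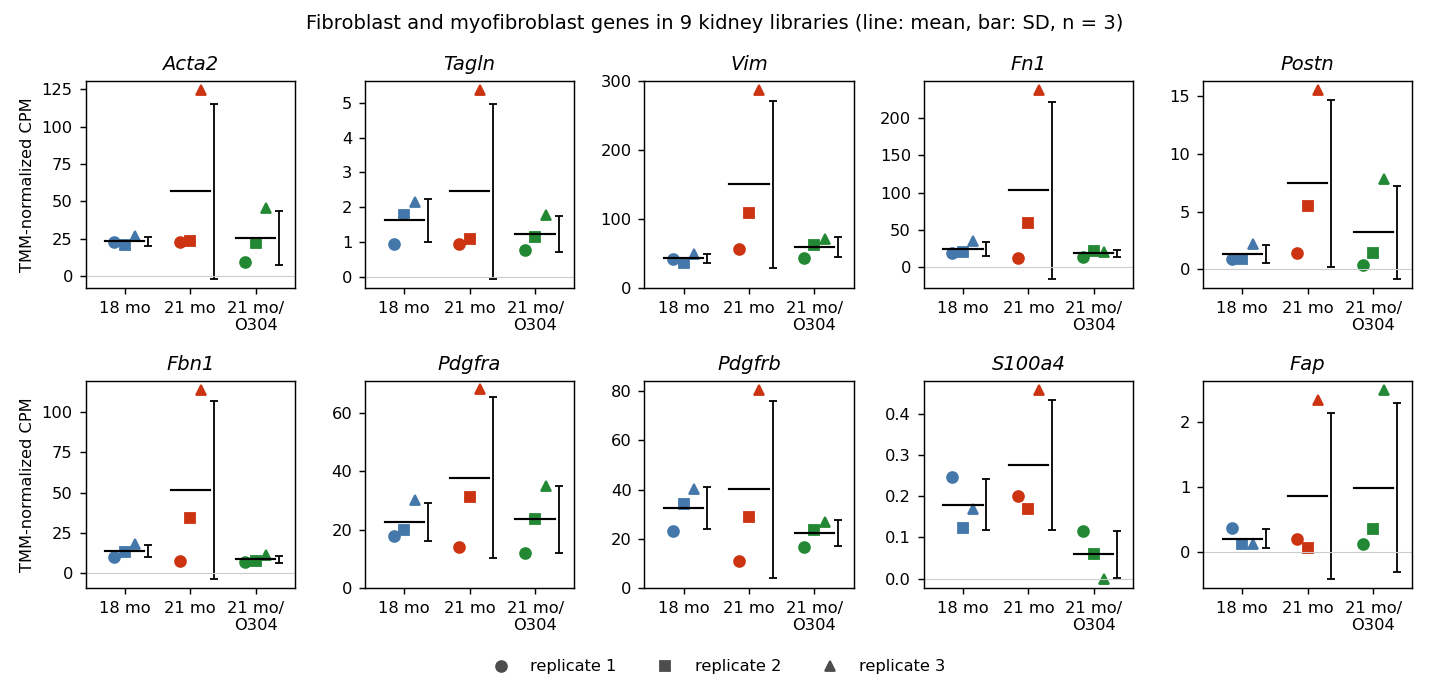
TMM-normalized CPM (y axis, linear) of each of the 10 genes in each library, by group (x axis), with symbols for replicate number, a line at the group mean and a bar of 1 SD beside it (n = 3). Replicate 3 of the 21 mo group is the highest library for every gene but Fap, and for Acta2 it lies at 124 CPM against 22.7 and 23.4 in the other 21 mo libraries.

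In the comparison of 21 mo with 18 mo kidneys, which asks how these genes stood in older, saline-injected mice, the group means of all 10 genes were higher at 21 mo, and all 8 genes tested had a fitted value above 0, where 52.7% of all genes did. None of the 8 genes tested passed an adjusted p of 0.05 in the edgeR quasi-likelihood test, and adjusted p ranged from 0.086 for Vim to 0.763 for Pdgfrb. Among all 15902 genes tested, 0.0189% were called higher and 0.0% lower in the same comparison, so few genes of any kind passed. At an unadjusted p under 0.05, 4 of the 8 genes were higher, namely Vim, Fn1, Postn and Fbn1, and none was lower, against 14.0% higher and 12.0% lower over all genes. The median log2 fold change of the 8 was 1.55, against 0.03 over all genes. In bulk tissue more cells of a type and more RNA per cell cannot be told apart.

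Acta2 encodes the smooth muscle actin by which myofibroblasts are usually recognised. It was at 22.9, 20.6 and 26.8 CPM in 18 mo replicates 1 to 3, at 22.7, 23.4 and 124 CPM in 21 mo replicates 1 to 3, and at 9.60, 22.3 and 45.3 CPM in 21 mo/O304 replicates 1 to 3. The first pair of 21 mo libraries lay inside the 18 mo range and only the last lay above it, so the groups overlapped. The log2 fold change at 21 mo was 1.28 ± 0.72 (SE, edgeR adjusted p = 0.282, exact permutation p = 0.6, two-sided), and without 21 mo replicate 3 it was −0.04. The smallest p that the permutation of 3 against 3 libraries allows is 0.1. Acta2 lies at chr19:34241090-34255336 on the minus strand and overlaps no other gene of the table. Its protein is near-identical to the other muscle actins. How reads mapping to several places were counted is not stated, and any effect on its level was not tested.

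Tagln encodes transgelin, an actin-binding protein of smooth muscle. Its level was low, at 0.929, 1.79 and 2.15 CPM in the 18 mo libraries, 0.937, 1.08 and 5.36 CPM in the 21 mo libraries and 0.756, 1.13 and 1.78 CPM in the 21 mo/O304 libraries. These are 13 to 117 counts, and the 117 counts of 21 mo replicate 3 carry an exact Poisson 95% interval of 96.8 to 140, which covers counting error alone and lies above the interval of each other library. The log2 fold change at 21 mo was 0.61 ± 0.69 (edgeR adjusted p = 0.595), and without 21 mo replicate 3 it was −0.70. Per length, Acta2 stood 12.9 to 28.3 times above Tagln within a library. Tagln at chr9:45929619-45936058 overlaps Pcsk7 and Gm48529 on the other strand, and since the use of strand in counting is not stated, its level is uncertain.

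Vim, the gene of the intermediate filament vimentin, was at 42.1, 36.7 and 50.0 CPM in the 18 mo libraries and at 56.0, 109 and 287 CPM in the 21 mo libraries. Every 21 mo library was above every 18 mo library, and Vim was the single gene of the 10 whose groups did not overlap here, against 13.5% of all genes higher without overlap. Its log2 fold change was 1.81 ± 0.51 (edgeR adjusted p = 0.086, exact permutation p = 0.1, the smallest possible). Vim was also the gene nearest to the threshold. It passed with DESeq2 on all 9 libraries (adjusted p = 0.00596), with every gene that had a count kept (edgeR adjusted p = 0.0454) and without 21 mo replicate 1 (log2 fold change 2.22 ± 0.37, edgeR adjusted p = 0.00668), while without 21 mo replicate 3 the value was 0.92 ± 0.29 (adjusted p = 0.121). Vim lies at chr2:13573927-13582826 on the plus strand and overlaps no other gene of the table.

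Among the matrix genes, Fn1 encodes fibronectin, an early scaffold of scar matrix. It was at 19.0, 20.0 and 34.8 CPM in the 18 mo libraries and at 12.9, 59.5 and 237 CPM in the 21 mo libraries. One 21 mo library thus lay below all 18 mo libraries and the other two above them. The log2 fold change was 2.07 ± 0.82 (edgeR adjusted p = 0.155), which became 2.61 ± 0.52 without 21 mo replicate 1 (adjusted p = 0.0114) and 0.54 ± 0.53 without replicate 3 (adjusted p = 0.583).

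Fbn1 encodes fibrillin-1, the backbone of microfibrils. At 10.5, 13.6 and 18.0 CPM in the 18 mo libraries and 7.83, 34.2 and 113 CPM in the 21 mo libraries, it had the same arrangement as Fn1, with replicate 1 below and replicates 2 and 3 above the 18 mo range. For Fbn1 the log2 fold change was 1.89 ± 0.74 (edgeR adjusted p = 0.154). It was 2.41 ± 0.45 without 21 mo replicate 1 (adjusted p = 0.00943), 0.57 ± 0.50 without replicate 3 (adjusted p = 0.54), and it passed with DESeq2 on all 9 libraries (adjusted p = 0.0458). Fn1 and Fbn1 were the closest pair among the 8 genes, with an FPKM ratio between 1.53 and 2.77 in all 9 libraries. They lie at chr1:71585520-71653200 and chr2:125300594-125507993, both on the minus strand, and each overlaps 1 gene on the plus strand, Apol7d and Gm9913.

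Postn encodes periostin, a matricellular protein scarce in healthy kidney and used as a marker of injury. It was at 0.929, 0.863 and 2.21 CPM in the 18 mo libraries and at 1.41, 5.46 and 15.5 CPM in the 21 mo libraries. The libraries overlapped through 21 mo replicate 1, which had 21 counts against 96 and 338 in the others. Its log2 fold change of 2.48 ± 1.10 was the highest of the 8 genes and also the least certain (edgeR adjusted p = 0.192). It was 2.98 without 21 mo replicate 1 and 1.34 without replicate 3, with adjusted p of 0.0601 and 0.478. Postn lies at chr3:54361109-54391037.

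Pdgfra and Pdgfrb encode the receptors for platelet-derived growth factors, with Pdgfra common on interstitial fibroblasts and Pdgfrb on pericytes and mesangial cells. Pdgfra was at 17.8, 19.9 and 30.0 CPM in the 18 mo libraries and at 14.2, 31.4 and 68.1 CPM in the 21 mo libraries. Pdgfrb was at 23.4, 34.2 and 40.2 CPM in the 18 mo libraries and at 10.9, 28.9 and 80.4 CPM in the 21 mo libraries. For both receptors 21 mo replicate 1 was below and replicate 3 above the whole 18 mo group. The log2 fold changes were 0.75 ± 0.55 for Pdgfra and 0.30 ± 0.58 for Pdgfrb (edgeR adjusted p = 0.403 and 0.763), and without 21 mo replicate 3 they were −0.01 and −0.73. The ratio of Pdgfra to Pdgfrb in FPKM was 0.318 to 0.417 in the 18 mo libraries and 0.463 to 0.711 in the 21 mo libraries, without overlap, and 0.392 to 0.714 in the 21 mo/O304 libraries, a difference that was not tested. The ratio of Vim to Acta2 was also without overlap, at 0.67 to 0.702 at 18 mo and 0.869 to 1.75 at 21 mo. The ratios of Acta2 to Tagln and of Fn1 to Fbn1 overlapped. The share of all gene pairs that separate is not given here. Pdgfra at chr5:75152292-75198215 overlaps Mir7025 on its own strand and Gm42803 and Gm42802 on the other.

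The calls thus depended on the test and on single libraries. For 21 mo against 18 mo, edgeR without 21 mo replicate 1 called Vim, Fn1 and Fbn1, where it called 13.6% of all genes higher, and without replicate 3 it called none of the 8, where it called 0.378% higher. DESeq2 on all 9 libraries called Vim and Fbn1, where it called 6.92% of genes higher. DESeq2 on the 6 libraries compared, a fit chosen after seeing the data, called Vim and Postn, where it called 4.02%. With sample weights, limma voom called Vim, Fn1, Postn and Fbn1, where it called 26.3% of genes higher, and with every gene that had a count kept, edgeR called Vim, where it called 1.43%. Vim was called in each of these fits but the one without replicate 3. No gene of the 10 was called by edgeR on all 9 libraries with the filter, whatever the scaling, or with the replicate number as a block. The same held for edgeR on the 6 libraries compared, limma-trend on FPKM and the fits without any other single library.

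The last pair were scarce. S100a4, a calcium-binding protein also made by leukocytes, had 4, 2 and 3 counts in the 18 mo libraries, 3, 3 and 10 in the 21 mo libraries and 2, 1 and 0 in the 21 mo/O304 libraries. Summed over each group these are 9, 16 and 3 counts, with exact Poisson 95% intervals of 4.12 to 17.1, 9.15 to 26.0 and 0.619 to 8.77, so a difference between 18 mo and 21 mo was not detectable at this depth. The 0 counts of 21 mo/O304 replicate 3 allow up to 3 counts, or 0.191 CPM. As measured, the 21 mo/O304 libraries lay below every library of both other groups (exact permutation p = 0.1 for each comparison, the smallest possible), where 10.5% of all genes tested were lower without overlap against 21 mo and 13.3% against 18 mo. That order does not hold against counting error, since 0.191 CPM is above 18 mo replicates 2 and 3 and 21 mo replicate 2, and since 21 mo/O304 replicate 1 and 18 mo replicate 2 both had 2 counts. S100a4 at chr3:90603771-90606045 overlaps Gm42674 on the same strand, and its counts are uncertain for that reason too.

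Fap encodes fibroblast activation protein, a cell-surface protease of activated fibroblasts. It had 6, 2 and 2 counts in the 18 mo libraries, 3, 1 and 51 in the 21 mo libraries and 2, 6 and 39 in the 21 mo/O304 libraries. Of its 112 counts 90 thus lay in 2 libraries of different groups, at 2.34 CPM in 21 mo replicate 3 and 2.48 CPM in 21 mo/O304 replicate 3, with exact Poisson 95% intervals of 1.74 to 3.07 and 1.77 to 3.40 CPM. Every other library was at 0.0568 to 0.372 CPM. The exact permutation p was 0.8 between 18 mo and 21 mo and 0.7 between saline and O304. Fap lies at chr2:62500943-62574075 on the minus strand.

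**Figure D2:**
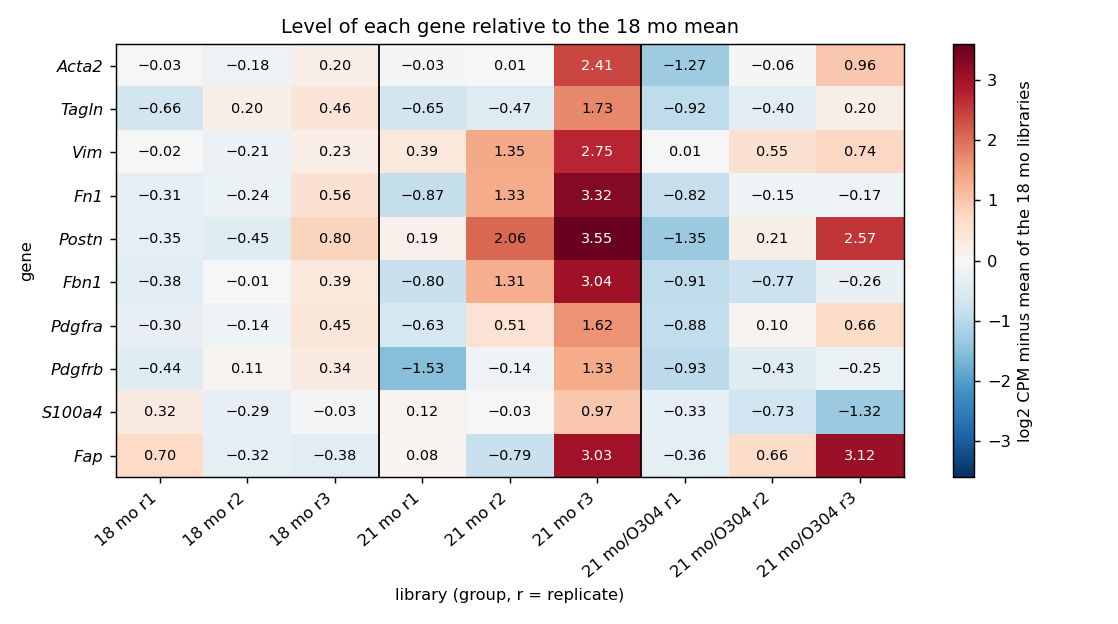
Log2 CPM of each gene (rows) in each library (columns, r for replicate) minus the mean of the 18 mo libraries, with red above and blue below that mean. Replicate 3 of the 21 mo group is above the mean in all 10 rows, from 0.97 for S100a4 to 3.55 for Postn, while 21 mo/O304 replicate 1 is at or below it for every gene but Vim at 0.01.

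The genes did not move as 1 block within libraries. In 21 mo replicate 3 all 10 genes were above all 18 mo libraries, where 41.3% of all genes tested were, and 9 of the 10 had their highest level of all 9 libraries there, where 28.9% of all genes had theirs. As a fold of the 18 mo mean they stood at 11.6 for Postn, 11.5 for Fap, 9.63 for Fn1, 8.09 for Fbn1, 6.69 for Vim, 5.31 for Acta2, 3.31 for Tagln, 3.02 for Pdgfra, 2.54 for S100a4 and 2.47 for Pdgfrb. Matrix genes and Fap therefore headed this library, and the receptors came near the end of the order.

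In 21 mo replicate 2 the genes stood on both sides of the 18 mo mean. Postn at 4.09 times the 18 mo mean, Vim at 2.53, Fbn1 at 2.44, Fn1 at 2.42 and Pdgfra at 1.39 were above all 18 mo libraries, 5 of the 10 genes against 37.3% of all genes. The contractile genes were not among them, with Acta2 at 1.00 and Tagln at 0.666 of the 18 mo mean, and Pdgfrb was at 0.888, S100a4 at 0.946 and Fap at 0.280, the lowest of its 9 libraries at 1 count. In 21 mo replicate 1, 4 genes were below all 18 mo libraries, against 33.4% of all genes, namely Fn1 at 0.525, Fbn1 at 0.559, Pdgfra at 0.628 and Pdgfrb at 0.335 of the 18 mo mean. Vim alone was above them there, at 1.30.

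With O304, the comparison asks how the same genes stood in mice that received the AMPK activator in place of saline. All 8 genes tested had a lower fitted value in 21 mo/O304 than in 21 mo kidneys, where 51.8% of all genes did, and the median log2 fold change was −1.18 against −0.02 over all genes. None passed the adjusted threshold in edgeR, where adjusted p ran from 0.176 to 0.493, and among all genes 0.0% were called in either direction. At an unadjusted p under 0.05, 3 genes were lower, Vim, Fn1 and Fbn1, against 12.4% of all genes. The same 21 mo libraries serve in this comparison and in the one before, so the pair are not independent of each other.

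The matrix genes gave the largest values. Fn1 was at 13.4, 21.3 and 21.0 CPM in the 21 mo/O304 libraries, all inside or below the 18 mo range and within the range of the 21 mo libraries, whose replicate 1 was lower still. Its log2 fold change against 21 mo was −2.48 ± 0.83 (edgeR adjusted p = 0.184). Without 21 mo replicate 1 it was −3.01 ± 0.52 (adjusted p = 0.00976) and without replicate 3 −0.96 ± 0.53 (adjusted p = 0.44).

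Fbn1 was at 7.21, 7.99 and 11.4 CPM in the 21 mo/O304 libraries, and overlapped the 21 mo group only through the 7.83 CPM of 21 mo replicate 1. The log2 fold change was −2.55 ± 0.76 (edgeR adjusted p = 0.176, DESeq2 on all 9 libraries 0.00893). Without 21 mo replicate 1 it was −3.07 ± 0.46 (edgeR adjusted p = 0.00689), and without replicate 3 it was −1.24 ± 0.51 (adjusted p = 0.332). Postn differed from these, with 0.407, 1.43 and 7.83 CPM in the 21 mo/O304 libraries, and its highest library lay above the lower pair of 21 mo libraries. Its log2 fold change was −1.22 ± 1.03 (edgeR adjusted p = 0.493), and −0.09 without 21 mo replicate 3.

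Vim was at 42.9, 62.3 and 71.4 CPM with O304, of which the lowest was under and the others over the 56.0 CPM of 21 mo replicate 1. Against 21 mo the log2 fold change was −1.36 ± 0.50 (edgeR adjusted p = 0.198), −1.76 ± 0.37 without 21 mo replicate 1 (adjusted p = 0.0157) and −0.48 ± 0.29 without replicate 3 (adjusted p = 0.477). For the contractile genes the values were −1.15 ± 0.71 for Acta2 and −1.02 ± 0.71 for Tagln (edgeR adjusted p = 0.361 and 0.404). Without 21 mo replicate 3 they were 0.16 and 0.28, on the other side of 0.

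Pdgfra was at 11.9, 23.7 and 35.0 CPM and Pdgfrb at 16.6, 23.6 and 26.7 CPM in the 21 mo/O304 libraries, inside the range of the 21 mo libraries but for the lowest Pdgfra value. The log2 fold changes against 21 mo were −0.69 ± 0.55 and −0.85 ± 0.58 (edgeR adjusted p = 0.462 and 0.401). Both changed sign without 21 mo replicate 3, to 0.05 and 0.17, and Pdgfrb passed without replicate 1 (−1.30 ± 0.40, adjusted p = 0.0484).

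Here too the calls followed the libraries and the test. edgeR without 21 mo replicate 1 called Vim, Fn1, Fbn1 and Pdgfrb lower with O304, where it called 12.6% of all genes lower, and without replicate 3 it called none of them, where it called 0.0062%. DESeq2 called Fbn1, both on all 9 libraries, where 4.27% of genes were called lower, and on the 6 compared, where 2.04% were. With its sample weights, limma voom called Vim, Fn1 and Fbn1, where it called 19.8% lower. No gene of the 10 was called by edgeR on all 9 libraries, whatever the scaling or filter, or with the replicate number as a block. The same held for edgeR on the 6 libraries compared, limma-trend on FPKM and the fits without any other single library.

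**Figure D3:**
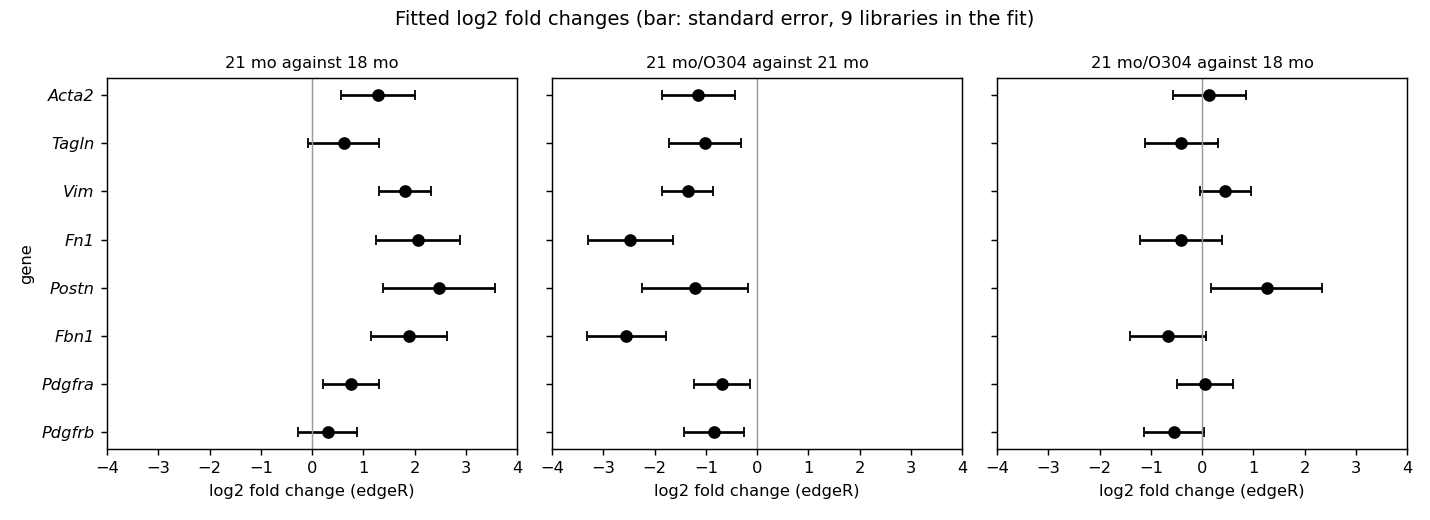
edgeR log2 fold change (x axis) of the 8 genes tested (y axis) in each of the 3 comparisons, with bars of 1 standard error from the fit to all 9 libraries. All 8 points lie above 0 for 21 mo against 18 mo and below 0 for 21 mo/O304 against 21 mo, and none has an adjusted p under 0.05.

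**Figure D4:**
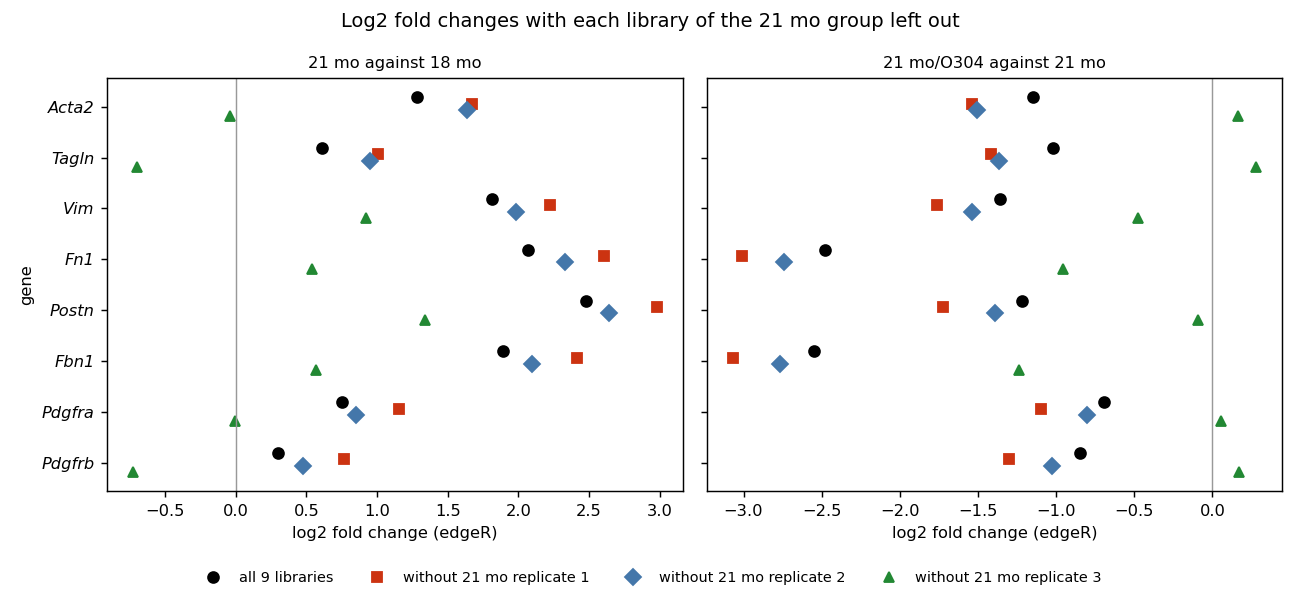
edgeR log2 fold change (x axis) of the 8 genes with all 9 libraries and with each 21 mo library left out in turn, comparing 21 mo with 18 mo (left) and O304 with saline (right). Leaving out replicate 3 brings Acta2, Tagln, Pdgfra and Pdgfrb to the other side of 0 in both panels, whereas leaving out replicate 1 moves all 8 genes further from 0.

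Against the 18 mo group, the O304-treated kidneys gave small values. 4 of the 8 genes tested had a higher and 4 a lower fitted value, where over all genes 50.4% were higher, and the log2 fold changes ran from −0.66 ± 0.74 for Fbn1 to 1.26 ± 1.08 for Postn. The smallest adjusted p was 0.759 and no gene of the 8 had an unadjusted p under 0.05, against 4.33% of all genes higher and 5.33% lower at that level. With standard errors of 0.50 for Vim to 1.08 for Postn, changes of the size seen at 21 mo would lie within a few standard errors, so these values do not show that the groups were alike.

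Single O304 libraries nevertheless differed. Replicate 1 held 8 of the 10 genes below all 18 mo libraries, against 30.4% of all genes, with Postn at 0.306, Acta2 at 0.410 and Tagln at 0.466 of the 18 mo mean. Replicate 3 held 5 of the 10 above all 18 mo libraries, against 31.7% of all genes, namely Fap at 12.3 times the 18 mo mean, Postn at 5.88, Acta2 at 1.94, Vim at 1.66 and Pdgfra at 1.55, while Fn1 at 0.852, Fbn1 at 0.814 and Pdgfrb at 0.821 were not raised there. In 21 mo replicate 2, by contrast, Fn1 and Fbn1 lay above the 18 mo range and Acta2 within it. Leaving out 21 mo/O304 replicate 3 turned the sign of Postn against 18 mo to −0.53, of Acta2 to −0.54 and of Pdgfra to −0.33.

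The genes around these 10 were taken from hand-written lists, and no gene of any list passed the adjusted threshold in edgeR on all 9 libraries in any comparison. Counts over the lists are given at an unadjusted p under 0.05, where over all genes 14.0% were higher and 12.0% lower at 21 mo, and 8.27% were higher and 12.4% lower with O304 against 21 mo. A fit without 21 mo replicate 3 gave 1616 of 16123 genes higher and 12.1% lower at 21 mo, and 7.12% and 6.95% with O304, while without replicate 1 the shares at 21 mo were 21.4% and 18.7%. These refits of the lists were added after seeing the data.

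Other fibroblast genes include collagens and proteoglycans of the interstitium. At 21 mo 7 of 30 tested were higher and none lower at an unadjusted p under 0.05, against 14.0% and 12.0% of all genes. Their median log2 fold change was 0.66. With O304 against saline 1 was higher and 9 were lower, against 8.27% and 12.4% of all genes, and the median was −0.94. Without 21 mo replicate 3 the counts were 2 higher and 1 lower at 21 mo and 3 higher and 5 lower with O304, and without replicate 1, 14 of 31 were higher at 21 mo. Col1a1, the main chain of type I collagen, was at 20.3, 22.7 and 33.9 CPM in the 18 mo libraries, 10.4, 63.7 and 168 CPM in the 21 mo libraries and 9.94, 16.7 and 12.6 CPM in the 21 mo/O304 libraries, an arrangement like that of Fn1. Its log2 fold changes were 1.66 ± 0.74 at 21 mo and −2.63 ± 0.77 with O304 against 21 mo (edgeR adjusted p = 0.196 and 0.175). Without 21 mo replicate 1 these were 2.19 ± 0.395 and −3.16 ± 0.41 (edgeR adjusted p = 0.00858 and 0.00532). Without replicate 3 they were 0.51 ± 0.58 and −1.49 ± 0.58 (edgeR adjusted p = 0.64 and 0.319). Dcn was at 31.7, 23.7 and 43.8 CPM, then 44.4, 66.4 and 169 CPM, then 26.5, 36.7 and 103 CPM in the same order, with 21 mo above 18 mo in every library and O304 replicate 3 high.

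Genes of activated fibroblasts and of matrix cross-linking had 14 of 29 tested higher and 1 lower at an unadjusted p under 0.05 at 21 mo. Over all genes 14.0% were higher and 12.0% lower, and the median log2 fold change of the list was 1.49. With O304 against 21 mo 16 were lower and none higher, against 12.4% and 8.27% of all genes, and the median was −1.46. These counts are above the shares of all genes with 9 libraries, but without 21 mo replicate 3 they were 4 higher and 1 lower of 29 at 21 mo, and 1 higher and 4 lower with O304. Without replicate 1, 24 of 33 were higher at 21 mo, against 21.4% of all genes. Lox, which cross-links collagen, was at 1.85 to 2.54 CPM in the 18 mo libraries and at 4.95, 12.8 and 106 CPM in the 21 mo libraries, without overlap (log2 fold change 4.21 ± 1.07, edgeR adjusted p = 0.0775, and 4.75 ± 0.82 with adjusted p = 0.00758 without replicate 1, but 1.97 ± 0.52 with 0.0905 without replicate 3). Tnc, the matrix glycoprotein tenascin-C, was at 1.60 to 3.72 CPM in the 18 mo libraries and at 2.27, 7.90 and 84.0 CPM at 21 mo. Cthrc1, found in collagen-rich activated fibroblasts, was below 0.6 CPM in every library and did not pass the filter.

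Smooth muscle contractile genes had 7 of 24 tested higher and 3 lower at an unadjusted p under 0.05 at 21 mo, against 14.0% and 12.0% of all genes. The share lower was thus near that of all genes, and the median log2 fold change was 0.55. Without 21 mo replicate 3 the counts were 1 higher and 7 lower, and the median was 0.07. Without replicate 1, by contrast, 11 were higher and 2 lower, against 21.4% and 18.7% of all genes. With O304 against 21 mo 6 of 24 were lower and none higher, against 12.4% and 8.27% of all genes. Without 21 mo replicate 3, 2 were lower and 1 higher with O304, against 6.95% and 7.12%. The fit without replicate 1 gave 13 lower and none higher with O304, against 20.7% and 18.1%. Myh11, the smooth muscle myosin heavy chain, was at 2.72 to 4.46 CPM in the 18 mo, 4.21 to 5.45 in the 21 mo and 3.46 to 6.37 CPM in the 21 mo/O304 libraries, so the 21 mo library with 5.31 times the 18 mo level of Acta2 had 5.45 CPM of Myh11. Cnn1, or calponin, was at 0.186 to 0.370 CPM at 18 mo and at 0.736, 0.966 and 2.61 CPM at 21 mo, above the 18 mo group in each library (log2 fold change 2.35 ± 0.79, edgeR adjusted p = 0.113, 0.0425 without replicate 1 and 0.277 without replicate 3). Des, or desmin, was highest in 21 mo replicate 3 as well, at 46.4 CPM against 8.61 to 22.3 CPM elsewhere.

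Pericyte and mesangial genes, the group nearest to Pdgfrb, had 2 of 16 tested genes higher and none lower at an unadjusted p under 0.05 at 21 mo, a share higher close to that of all genes, and their median log2 fold change was −0.05. Without replicate 1, 6 of 17 were higher and 3 lower, against 21.4% and 18.7% of all genes, so the share lower was near that of all genes. With O304 against 21 mo 2 of 16 were lower and none higher, against 12.4% and 8.27% of all genes. Without 21 mo replicate 1, 6 of 17 were lower and 3 higher with O304, against 20.7% and 18.1% of all genes. Rgs5, a pericyte regulator of G-protein signalling, was at 13.2 to 18.6 CPM at 18 mo and at 24.6 to 36.6 CPM at 21 mo, with the highest value in replicate 1, which is the library where Pdgfrb was lowest (log2 fold change of Rgs5 0.97 ± 0.21, edgeR adjusted p = 0.063, 0.0221 without replicate 1 and 0.0784 without replicate 3). Cspg4, the proteoglycan NG2, was at 19.3 to 23.2 CPM at 18 mo and 13.6 to 30.6 CPM at 21 mo. Notch3 was at 6.78 to 8.67 CPM at 18 mo, 7.76, 9.55 and 18.0 CPM at 21 mo and 3.57 to 4.77 CPM with O304. Its log2 fold change with O304 against 21 mo was −1.50 ± 0.32 (edgeR adjusted p = 0.175, 0.00908 without replicate 1 and 0.223 without replicate 3).

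The upstream signals were measured too. Of the PDGF ligands, 1 of 4 was higher at an unadjusted p under 0.05 at 21 mo, and 2 were lower with O304 against 21 mo, counts too small to set against 14.0% and 12.4% of all genes. Pdgfb, the ligand of both receptors, was at 29.9, 34.3 and 36.1 CPM at 18 mo, 23.6, 76.1 and 71.4 CPM at 21 mo and 25.2, 33.2 and 26.6 CPM with O304. Its log2 fold changes at 21 mo and with O304 against 21 mo were 0.77 ± 0.36 and −1.01 ± 0.37 (edgeR adjusted p = 0.214 and 0.195). Without 21 mo replicate 1 they were 1.16 ± 0.15 and −1.39 ± 0.15 (edgeR adjusted p = 0.00389 and 0.00379). Without replicate 3 they were 0.56 ± 0.38 and −0.81 ± 0.38 (edgeR adjusted p = 0.416 and 0.371). Of the TGF-beta ligands and receptors, the main inducers of myofibroblasts, 5 of 14 were higher and 1 lower at 21 mo at that level, and 4 were lower with O304, against the same shares, and without 21 mo replicate 3 the counts were 3 higher and 2 lower at 21 mo and 1 higher and 1 lower with O304. Without replicate 1, 10 of 14 were higher at 21 mo, against 21.4% of all genes. Tgfb1 was at 18.8 to 26.7 CPM at 18 mo, at 16.3, 30.5 and 49.0 CPM at 21 mo and at 18.9 to 24.7 CPM with O304.

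Of the matrix-binding integrins, receptors for fibronectin and other matrix proteins, 3 of 9 were higher and none lower at 21 mo at an unadjusted p under 0.05, against 14.0% and 12.0% of all genes, and 3 of 9 also without replicate 3. Itgav was at 114 to 141 CPM at 18 mo and at 171, 243 and 205 CPM at 21 mo, without overlap (log2 fold change 0.69 ± 0.18, edgeR adjusted p = 0.0775, 0.0119 without replicate 1 and 0.0897 without replicate 3). Itgb1, its partner, was likewise without overlap, at 257 to 270 CPM and at 317, 373 and 569 CPM. Of other intermediate filament genes and partners of vimentin 4 of 8 were higher at 21 mo and 6 lower with O304 at that level. The shares of all genes were 14.0% and 12.4%. Without 21 mo replicate 3 the counts were 2 and 2, against 1616 of 16123 genes higher at 21 mo and 6.95% lower with O304. Without replicate 1, 7 were higher at 21 mo and 7 lower with O304, against 21.4% and 20.7% of all genes. Nes, or nestin, was at 18.7 to 32.9 CPM at 18 mo and at 19.3, 23.0 and 87.4 CPM at 21 mo.

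In the S100 family, 5 of 9 tested genes were higher at 21 mo at an unadjusted p under 0.05 and none was lower, against 14.0% and 12.0% of all genes, and without replicate 3 the counts were 4 and 1. S100a10, an annexin partner, was at 90.2 to 110.0 CPM at 18 mo and 155, 218 and 284 CPM at 21 mo (log2 fold change 1.08 ± 0.23, edgeR adjusted p = 0.0626, 0.00468 without replicate 1 and 0.0647 without replicate 3). S100a6 reached 313 CPM in 21 mo replicate 3 against 14.5 to 55.9 CPM in the other libraries. Among the relatives of Fap, proline-cutting proteases, none of 5 was higher and 1 was lower at 21 mo, and Dpp4 was at 48.1 to 73.7 CPM over all 9 libraries, without the high values that Fap had in 2 of them.

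**Figure D5:**
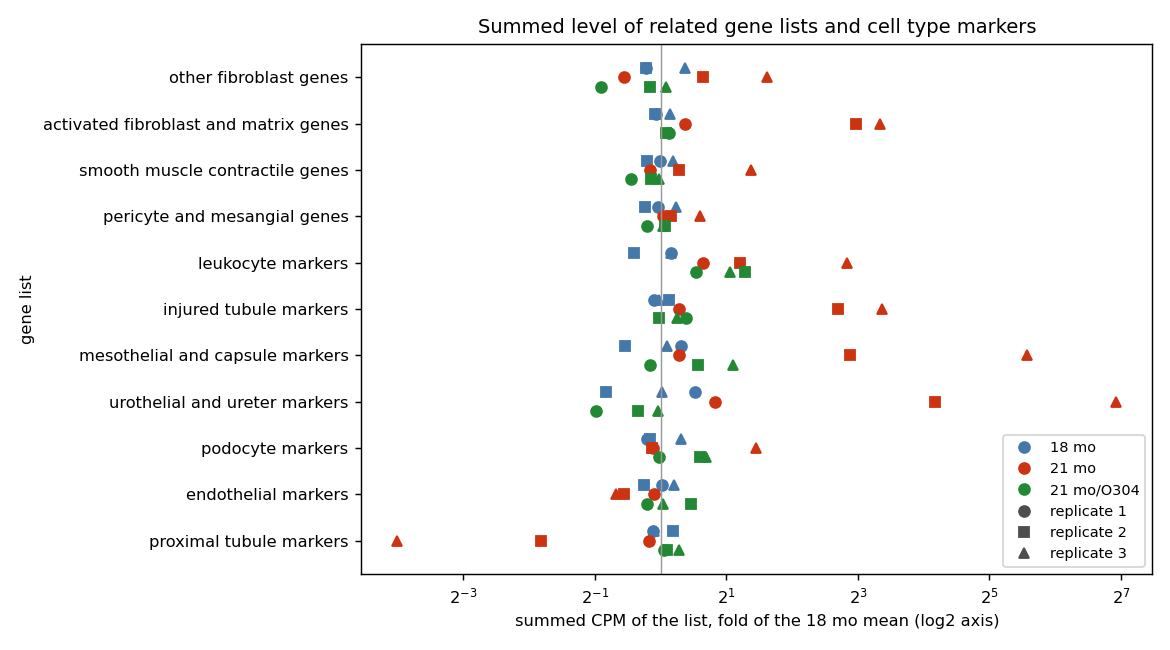
Summed CPM of gene lists and cell type markers (y axis) in each library as a fold of the 18 mo mean (x axis, log2 scale), with colours for groups and symbols for replicate number. Replicates 2 and 3 of the 21 mo group lie at 18.0 and 122 for urothelial markers and at 0.283 and 0.0622 for proximal tubule markers, and the activated fibroblast sum is mostly Spp1, which makes up 72.4% of it.

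Markers of several other cell types moved with the same libraries. In 21 mo replicates 1 to 3 the summed level, as a fold of the 18 mo mean, was 1.56, 2.32 and 7.16 for leukocytes, 1.21, 6.47 and 10.3 for injured tubule, 1.21, 7.38 and 47.4 for mesothelium and capsule, 1.77, 18.0 and 122 for urothelium and ureter, and 0.924, 0.915 and 2.72 for podocytes. Endothelial markers stood at 0.934, 0.683 and 0.623. Single genes carried much of these sums, with Lyz2 at 39.8% of the leukocyte, Clu at 50.0% of the injured tubule and Krt19 at 55.8% of the mesothelial sum. By the median marker 21 mo replicates 1 to 3 stood at 1.57, 1.49 and 3.34 times the 18 mo mean for leukocytes. They stood at 1.55, 9.20 and 9.13 for injured tubule, 1.35, 15.3 and 58.7 for mesothelium and 1.77, 6.92 and 35.4 for urothelium. Neutrophil markers stood at 4.7, 2.03 and 4.94 by that measure, over the 4 of 9 listed that passed the filter. All were scarce, with a sum of 2.85 to 4.3 CPM at 18 mo. Ly6g, which did not pass, was at 0.0669, 0.0568 and 0.0916 CPM at 21 mo against 0.0 to 0.124 CPM at 18 mo. By the median marker the leukocyte genes and these few neutrophil genes were thus also raised in replicate 1. In 21 mo/O304 replicates 1 to 3 the same sums were 1.45, 2.43 and 2.08 for leukocytes, 0.898, 1.48 and 2.14 for mesothelium and 0.505, 0.788 and 0.974 for urothelium, and the proximal tubule was at 1.04, 1.07 and 1.22.

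Of the 12 injured tubule markers tested all 12 were higher at 21 mo at an unadjusted p under 0.05, as were 12 of 22 leukocyte, 4 of 4 neutrophil, 3 of 4 mesothelial and 3 of 3 urothelial markers, and 4 of 13 proximal tubule markers were lower, against 14.0% of all genes higher and 12.0% lower. Without replicate 3 these counts were 11 of 12, 10 of 23, 3 of 4, 2 of 4, 3 of 3 and 6 of 13. The proximal tubule count was 10 of 13 without replicate 1, where 18.7% of all genes were lower. It was 1 of 13 without replicate 2, near the 8.95% of all genes lower there. The mesothelial list shares Krt19 with the injured tubule list and other genes with the podocyte and urothelial lists, so these counts are not fully separate. Upk3a, a uroplakin of the urothelium, was at 0.0 to 0.453 CPM at 18 mo and at 0.803, 12.0 and 51.6 CPM at 21 mo. Msln, a mesothelial surface protein, was at 0.0 to 0.0616 CPM at 18 mo and at 0.0, 3.92 and 22.7 CPM at 21 mo, while the mesothelial marker Lrrn4 was at 0.116 CPM or less in every library. Upk1a reached 33.1 CPM and Upk2 8.29 CPM in 21 mo replicate 3. Lcn2, an injury marker of tubules, was at 2.10 to 15.4 CPM at 18 mo and at 17.5, 323 and 1260.0 CPM at 21 mo. The libraries with the highest Vim, Fn1 and Fbn1 were therefore also those with the highest urothelial and mesothelial markers and the lowest proximal tubule markers, and the part of each in the levels of the 10 genes was not tested.

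With O304 the adipocyte markers were high. Adipoq, the fat hormone adiponectin, was at 21.6, 1.97 and 15.1 CPM in the 21 mo/O304 libraries against 0.0 to 1.41 CPM in all others, and Plin1 was at 12.6, 1.13 and 5.35 CPM against 0.0 to 1.02 CPM. Of 12 adipocyte markers tested, 7 were higher and none lower than at 21 mo at an unadjusted p under 0.05, against 8.27% and 12.4% of all genes. Without 21 mo replicate 3, 10 of 13 were higher, against 7.12% of all genes. Fap and Postn were high in replicate 3 and low in replicate 1 of this group, both of which had high Adipoq, and the part of adipose tissue in the levels of the 10 genes was not tested. Blood cell RNA was highest in 21 mo replicate 1, with Hbb-bs at 519 CPM against 2.02 to 115 CPM in the other 8 libraries. With all 9 libraries 0 of 6 blood genes differed at an unadjusted p under 0.05 in any comparison. Without 21 mo replicate 1, 5 of 6 were lower at 21 mo and 4 of 6 were higher with O304 against 21 mo. The shares of all genes there were 18.7% lower and 18.1% higher.

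For 7 of the 8 genes the pair of other protein-coding genes with the most similar profile over 9 libraries was found among 13908, by the root mean square (RMS) difference of log2 CPM after centring each gene on its own mean. Vim was matched most closely, by Serpinb6b (RMS difference 0.082) and Serpinb6a (0.127), where its median difference to all genes searched was 0.899. Pdgfra was followed by Gucy1a1 (0.131) and Cyp1b1 (0.191), and Pdgfrb by Loxl1 (0.189) and Svep1 (0.211). Fn1 was nearest to Mmp2 (0.151) and Fbn1 to Col1a2 (0.196), and both had C1qtnf6 as the second (0.218 and 0.200). Acta2 was nearest to Dusp10 (0.240) and Vgll3 (0.279), and Tagln to Egflam (0.219) and Foxc2 (0.241). These are descriptions over 9 libraries that share the same mice, in which 21 mo replicate 3 weighs heavily.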

How the data were processed

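Kidney RNA of 9 mice was sequenced, 1 library per mouse. Per the labels and the study's methods, the authors used HISAT2 2.0.5 for alignment and featureCounts 1.5.0-p3 for gene counts, and the submitters' processing notes name GRCm38 and mm10. The deposited gene counts are raw whole numbers, and the authors derived FPKM from them by gene length. Strandedness and the treatment of reads mapping to several places are not given in the sources used here. Coordinates are those of the deposited table, 1-based, and all 10 genes overlap the RefSeq GRCm38.p6 gene of the same symbol. Columns with the authors' own results for 2 comparisons (log2 fold change, p-value, adjusted p-value) were deposited too and not used.

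The 10 genes and all lists were chosen with earlier results of these data known. Counts were normalized by TMM and filtered with filterByExpr (minimum count 10, minimum total 15), which kept 15902 genes and 8 of the 10. The edgeR 4.0.16 quasi-likelihood test (R 4.3.3) was fitted to 9 libraries with 3 group means and 6 residual degrees of freedom, two-sided, with Benjamini-Hochberg adjustment over all genes tested. Single genes were also compared by the exact permutation test of 3 against 3 libraries. log2 CPM used a prior count of 2, and a count of 0 was taken to allow up to 3 counts. Poisson intervals are exact and cover counting error only. The alternatives were DESeq2 1.42.0, other scalings, no filter, only the 6 libraries compared, limma 3.58.1 with voom sample weights, limma-trend on log2(FPKM + 1) and log2(FPKM + 0.1), the replicate number as a block and leaving out each library. The tests were tested on simulated data. Genes named are the 10, the defining genes of each list and the 2 nearest profiles of each tested gene but Postn, whose result needs a withheld item and is not reported here. Apol7d, Gm9913, Pcsk7, Gm48529, Mir7025, Gm42803, Gm42802 and Gm42674 are named as overlapping genes and Spp1, Kap, Lyz2, Clu and Krt19 for their share of a sum.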

Additional observations from a re-analysis of the deposited data

How the results depend on the processing

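Main calls were 0 of 8 genes in each comparison. For 21 mo against 18 mo, 2 passed with DESeq2 on all 9 libraries (Vim, Fbn1), 1 with every gene that had a count (Vim), 4 with voom sample weights (Vim, Fn1, Postn, Fbn1), 4 at an unadjusted p, and 0 to 3 when single libraries were left out (3, without 21 mo replicate 1, were Vim, Fn1 and Fbn1). DESeq2 on the 6 libraries compared, an alternative chosen after seeing the data, gave 2 (Vim, Postn). Other scalings, edgeR on the 6 libraries compared and limma-trend on FPKM gave 0, here and with O304 against 21 mo. For 21 mo/O304 against 21 mo the counts were 1 with DESeq2 (Fbn1), 3 with voom (Vim, Fn1, Fbn1), 3 at an unadjusted p, 0 to 4 with single libraries left out (4, without 21 mo replicate 1, were Vim, Fn1, Fbn1 and Pdgfrb), and 1 with DESeq2 on 6 libraries (Fbn1). For 21 mo/O304 against 18 mo every alternative gave 0. Genes whose libraries did not overlap numbered 1 in each comparison, Vim at 21 mo and S100a4, which did not pass the filter, in the others. Over all genes 13.5% were higher without overlap at 21 mo. With O304 10.5% were lower without overlap against 21 mo and 13.3% against 18 mo. With single libraries left out the counts were 1 to 5, 1 to 5 and 1 to 4, for which the shares of all genes are not given here. voom gave 21 mo replicate 2 a weight of 9.12 and replicates 1 and 3 weights of 0.223 and 0.132. Over all genes, 3 were called for 21 mo against 18 mo by edgeR, 1154 higher and 905 lower by DESeq2, 4180 and 4229 by voom, and 2232 and 1954 without 21 mo replicate 1. Another scaling moved the median log2 fold change of all genes by less than 0.1 and reversed no gene.

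Signs turned for 5 genes, none with an adjusted p under 0.05. With voom, 21 mo against 18 mo gave −0.013 for Acta2, −0.63 for Tagln and −0.26 for Pdgfrb, Tagln gave 0.021 for 21 mo/O304 against 21 mo, and against 18 mo Acta2 gave −0.25 and Pdgfra −0.22. On log2(FPKM + 1), with or without the filter, Pdgfrb at 21 mo gave −0.04, and Acta2 and Pdgfra with O304 against 18 mo gave −0.10 and −0.002. On log2(FPKM + 0.1) these were −0.11, −0.12 and −0.031. With single libraries left out, 21 mo against 18 mo ranged from −0.038 to 1.68 for Acta2, −0.70 to 1.01 for Tagln, −0.005 to 1.16 for Pdgfra and −0.73 to 0.76 for Pdgfrb, the low ends without 21 mo replicate 3. For 21 mo/O304 against 21 mo these were −1.84 to 0.16, −1.41 to 0.28, −1.10 to 0.053 and −1.30 to 0.17. For 21 mo/O304 against 18 mo they were −0.54 to 0.53 for Acta2, −0.53 to 1.83 for Postn and −0.33 to 0.38 for Pdgfra, where leaving out 18 mo replicate 1 or 2 gave −0.09 or −0.03. Without 21 mo replicate 2 no gene turned sign and none was called. The causes were not tested. Equal replicate numbers did not pair the mice, with correlations of deviations between −0.131 and 0.175. The replicate block left all counts at 0 and gave −0.007 for Pdgfrb at 21 mo, and −0.18 for Acta2 and −0.061 for Pdgfra with O304 against 18 mo.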
